A study of Mus musculus with 12 samples.

Results

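The response of wild-type mouse macrophages to lipopolysaccharide plus interferon-gamma was measured by RNA sequencing in 6 libraries, 3 of stimulated cells (WT_M1, replicates 10 to 12) and 3 of unstimulated cells (WT_M0, replicates 4 to 6). The members described are all genes with at least 10 counts in at least 3 of these 6 libraries, which were 14547 of the 56980 gene IDs in the deposited count table. The cells were bone marrow-derived macrophages: marrow flushed from the long bones of the hind legs, freed of red cells and grown for 7 days in medium conditioned by L929 cells, a mouse fibroblast line that secretes the macrophage growth factor CSF-1. WT_M1 cells received 100 ng/ml of lipopolysaccharide (LPS) with 10 ng/ml of interferon-gamma, and WT_M0 cells received neither. The same table holds 3 cKO_M1 and 3 cKO_M0 libraries with the same 2 states, from mice named as conditional knockouts of Regnase-3 with RankCre, in which the Rank gene drives the recombinase; these entered the estimate of the spread and the tests of a difference in response. The sources used here do not say how long the cells were stimulated, nor the strain, sex, age and number of the mice. The labels do not say that replicates came from separate mice or cultures, so that the p-values measure the spread between these libraries, which may be technical.

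LPS is a component of the outer membrane of Gram-negative bacteria that is sensed by TLR4 with MD-2 and CD14, and its adaptors MyD88 and TRIF lead to the transcription factors NF-kB, AP-1 and IRF3. Interferon-gamma is the product of activated T and NK cells, and its receptor acts through the kinases JAK1 and JAK2 and STAT factors, which bind the gamma-activated sequence (GAS). Together they induce the state known as classical or M1 activation, in which macrophages make nitric oxide and inflammatory cytokines, present antigen and restrict intracellular microbes.

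Promoters of 5 genes that rose are shown because each holds a motif by which these factors are known. The motifs searched, on both strands, were GGGNNTTTCC for NF-kB, GAAANNGAAA for the core of the interferon-stimulated response element (ISRE) that IRF factors bind, and TTCNNNGAA for GAS. The sequences are those of RefSeq on the build GRCm38.p6, from 250 bases before to 50 bases after the gene start, with the match in capitals. They are of Il6 (chr5:30012864-30013163, plus strand), Socs3 (chr11:117969317-117969616, minus strand), Gbp2 (chr3:142620413-142620712, plus strand), Socs1 (chr16:10785487-10785786, minus strand) and Cxcl10 (chr5:92348840-92349139, minus strand).
Il6: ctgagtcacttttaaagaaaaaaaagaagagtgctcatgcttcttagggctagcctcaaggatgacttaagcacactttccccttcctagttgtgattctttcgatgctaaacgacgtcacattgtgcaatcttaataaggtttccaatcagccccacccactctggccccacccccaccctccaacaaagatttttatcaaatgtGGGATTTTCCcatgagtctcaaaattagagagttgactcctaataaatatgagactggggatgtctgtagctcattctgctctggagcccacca
Socs3: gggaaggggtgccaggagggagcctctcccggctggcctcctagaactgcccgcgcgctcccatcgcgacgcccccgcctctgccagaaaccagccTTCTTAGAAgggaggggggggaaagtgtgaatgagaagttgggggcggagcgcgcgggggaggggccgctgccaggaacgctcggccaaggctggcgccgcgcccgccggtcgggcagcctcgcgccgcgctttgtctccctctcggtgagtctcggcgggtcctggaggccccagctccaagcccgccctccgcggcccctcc
Gbp2: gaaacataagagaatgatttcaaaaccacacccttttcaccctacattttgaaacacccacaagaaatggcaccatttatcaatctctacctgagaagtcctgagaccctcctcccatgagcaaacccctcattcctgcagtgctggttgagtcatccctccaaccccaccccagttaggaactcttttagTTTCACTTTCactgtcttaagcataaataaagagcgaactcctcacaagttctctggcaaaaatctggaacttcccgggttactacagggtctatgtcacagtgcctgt
Socs1: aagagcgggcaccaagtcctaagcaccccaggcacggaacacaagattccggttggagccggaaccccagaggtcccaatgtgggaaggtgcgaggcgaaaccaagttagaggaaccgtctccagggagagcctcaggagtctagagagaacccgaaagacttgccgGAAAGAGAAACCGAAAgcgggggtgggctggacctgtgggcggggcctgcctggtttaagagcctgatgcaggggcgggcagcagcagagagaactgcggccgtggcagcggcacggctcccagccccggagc
Cxcl10: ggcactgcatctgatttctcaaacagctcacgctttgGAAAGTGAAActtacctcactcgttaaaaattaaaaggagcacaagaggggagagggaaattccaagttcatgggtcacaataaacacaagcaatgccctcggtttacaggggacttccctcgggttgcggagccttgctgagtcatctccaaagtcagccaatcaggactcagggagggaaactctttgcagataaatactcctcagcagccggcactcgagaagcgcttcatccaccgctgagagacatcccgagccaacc
The capitals mark an NF-kB motif in Il6, a GAS in Socs3, an ISRE core on the reverse strand in Gbp2, 2 overlapping ISRE cores in Socs1 and 1 ISRE core in Cxcl10. Of the 29 genes drawn below in the plot of levels by library 21 rose, 14 of these had a promoter in the table, and 7 of these held at least 1 of the motifs (the 5 shown, Irf1 with GAS and Nfkbia with NF-kB).

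The NF-kB motif was in 1.63%, the ISRE core in 3.44% and GAS in 8.3% of all 32851 promoters in the table. Among promoters of genes that rose at least 2-fold these shares were 3.39%, 6.55% and 7.6%, and among genes that rose at least 32-fold they were 7.14%, 7.74% and 8.93%. Genes that fell at least 2-fold had 1.79%, 2.7% and 7.02%, against 1.81%, 3.39% and 6.82% for all tested genes. These shares were not tested. Between 59.1% and 69.3% of the genes of these sets matched a promoter entry, and a match is a description of the sequence, not a binding site.

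Library totals lay between 41721452 and 42100480 counts in the 6 libraries. Levels are given as CPM, counts that TMM factors put on one library size, and changes as the log2 fold change of WT_M1 over WT_M0, where 1 is a 2-fold change. The ± value of a change, called its standard error (SE), is the size of the change divided by the square root of the F value of the test named next. It is approximate, and for genes with few counts in a group it can be far smaller than the counting error. A gene passed when its adjusted p (edgeR's quasi-likelihood test with Benjamini-Hochberg adjustment over 14547 genes) was under 0.05. At this threshold 72.9% of the tested genes passed, 5100 higher (35.1%) and 5508 lower (37.9%). The counts of list members below are to be read beside these shares, since genes at large moved in both directions. At least 2-fold were 2524 higher (17.4%) and 3119 lower (21.4%), and at least 32-fold were 242 higher and 232 lower. The 3 WT_M1 and 3 WT_M0 libraries did not overlap for 76.8% of genes. Correlations of log levels across genes were 0.995 to 0.997 within WT_M1, 0.996 to 0.998 within WT_M0 and 0.88 to 0.886 between them.

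The composition of the RNA changed with stimulation. Genes that rose at least 2-fold held 46.7% to 47.0% of all counts in WT_M1 and 17.7% in WT_M0, and genes that fell at least 2-fold held 3.03% to 3.10% in WT_M1 and 14.6% to 14.8% in WT_M0. TMM factors were 0.794 to 0.817 in WT_M1 and 1.20 to 1.22 in WT_M0, so that scaling by library totals alone would lower every log2 change by 0.59. Changes below are relative to the TMM scale, on which the median gene stood at −0.05, and are named where the other scaling turns their direction. On library totals alone 2709 genes were higher and 8820 lower. Because these are bulk samples, fewer cells of a type and less RNA per cell cannot be told apart.

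WT_M1 replicate 11 stood apart from the other 2 stimulated libraries in a limited set of genes. Of 1388 genes that rose at least 2-fold and had at least 20 CPM in WT_M1, 105 had a coefficient of variation of at least 20% over the 3 libraries, and replicate 11 was the one farthest from the others in 102 of them. The median coefficient of variation of the 1388 genes was 7.85%. Without that library 5089 genes were higher and 5118 lower. In WT_M0, 134 of 6477 genes of at least 20 CPM varied as much, with replicate 5 farthest in 86 and replicate 4 in 46.

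**Figure D1:**
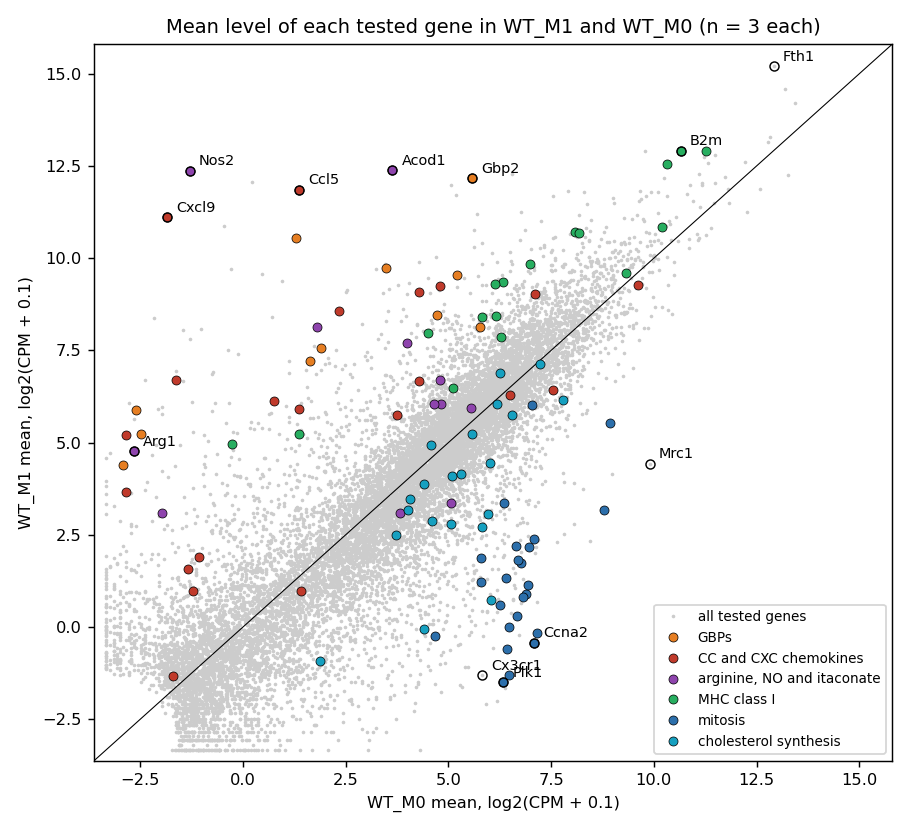
Mean level of every tested gene in WT_M1 (vertical axis) against WT_M0 (horizontal axis), both as log2(CPM + 0.1) with n = 3 libraries each; coloured points are members of 6 gene lists, and the line marks equal levels. Guanylate-binding proteins, chemokines and class I genes lie above the line for the most part, with Nos2, Cxcl9 and Ccl5 among the farthest, and mitosis genes lie below it.

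Components of LPS sensing moved in both directions. The gene of the LPS receptor itself, Tlr4, had 111, 82.1 and 105 CPM in WT_M1 and 95.3, 99.5 and 98.4 CPM in WT_M0, and these ranges overlap. Its log2 change was 0.03 ± 0.10 (SE, adjusted p = 0.827), or −0.56 on library totals alone. The co-receptor gene Cd14 fell by 0.93 ± 0.09 and Tlr2, which senses bacterial lipoproteins, by 1.82 ± 0.11, while Ly96, which encodes MD-2, rose by 1.20 ± 0.17. Of 25 tested genes of Toll-like receptor sensing 15 rose and 8 fell, with a median log2 change of 0.68, and on library totals alone 10 rose and 11 fell. Ticam1, which encodes TRIF, rose by 1.89 ± 0.10, Irak2, a kinase of the MyD88 complex, by 2.24 ± 0.10 and Tlr9, a sensor of CpG DNA, by 2.40 ± 0.13. Myd88 itself was higher by 0.57 ± 0.11, which became −0.01 on library totals alone. Tlr5, the flagellin receptor, had 4, 0 and 12 counts in WT_M1 and 197, 266 and 232 counts in WT_M0. Its fall of 4.83 ± 0.43 was −4.24 without WT_M1 replicate 11 and −6.17 without WT_M1 replicate 12.

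On the interferon side, the 2 receptor chains moved in opposite directions. Ifngr1, the ligand-binding chain, had 77.3, 66.0 and 72.2 CPM in WT_M1 and 177, 156 and 176 CPM in WT_M0, a fall of 1.24 ± 0.08. Ifngr2, the signalling chain, rose by 0.96 ± 0.09, and Jak2, the kinase attached to it, by 2.78 ± 0.08. Stat2 and Stat3, factors of type I interferon and interleukin-6 signalling, rose by 2.03 ± 0.17 and 1.84 ± 0.08. Of 15 tested receptor, JAK and STAT genes 10 rose and 3 fell, with a median of 0.89, and on library totals alone 10 rose and 5 fell.

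Interferon regulatory factors were led by Irf1, an early interferon-gamma target that in turn drives other interferon-gamma genes. Irf1 had 939, 811 and 1007 CPM in WT_M1 and 57.6, 55.2 and 55.5 CPM in WT_M0, without overlap, a rise of 4.03 ± 0.11 (adjusted p = 8.5e-14). Irf7, the factor that amplifies type I interferon, rose by 3.91 ± 0.23, and the myeloid factors Irf8 and Irf5 by 1.86 ± 0.10 and 1.49 ± 0.08. Irf4, the factor linked to alternative activation, fell by 4.5 ± 0.27 to a mean below 1 CPM in WT_M1. In all 6 of 8 tested members rose and 2 fell, and the median was 1.11.

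Most tested NF-kB genes rose, and the subunit genes Nfkb1 and Rel did not pass. Nfkbia, the inhibitor IkB-alpha that NF-kB itself induces, had 324, 358 and 335 CPM in WT_M1 and 67.2, 61.4 and 67.2 CPM in WT_M0. It rose by 2.38 ± 0.09 (adjusted p = 1.59e-12), and Nfkbib, encoding IkB-beta, by 2.35 ± 0.10. Relb and Nfkb2, the subunits of the non-canonical dimer, rose by 1.65 ± 0.11 and 1.54 ± 0.10. Rel was at −0.04 ± 0.08 and Nfkb1 at 0.07 ± 0.08 (adjusted p = 0.643 and 0.386), and the WT_M1 and WT_M0 libraries overlapped for both. Of 16 tested members 12 rose and 0 fell, but on library totals alone 10 rose and 4 fell, with Nfkb1 at −0.51.

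The AP-1 and BATF group had 8 of 11 tested members higher and 2 lower, with a median of 1.74. Batf2, an interferon-induced partner of IRF1, rose by 4.45 ± 0.13, the small MAF factor Maff by 4.42 ± 0.20, Batf by 3.31 ± 0.19 and the stress-induced repressor Atf3 by 1.98 ± 0.07. Fos had 71.5, 33.5 and 69.8 CPM in WT_M1 and 75.4, 107 and 73.3 CPM in WT_M0. Its fall of 0.55 ± 0.22 (adjusted p = 0.0364) was no longer called without WT_M1 replicate 11 (−0.24, adjusted p = 0.174) or without WT_M0 replicate 5 (−0.35, adjusted p = 0.187).

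Genes that restrain these pathways rose with them. Socs3, an inhibitor of gp130 and JAK signalling, had 550, 533 and 602 CPM in WT_M1 and 5.82, 5.27 and 5.92 CPM in WT_M0. Socs1, the inhibitor of interferon-gamma signalling, had 126, 83.8 and 166 CPM in WT_M1 and 2.88, 3.32 and 2.27 CPM in WT_M0. Neither overlapped, and the changes were 6.63 ± 0.11 for Socs3 and 5.47 ± 0.27 for Socs1 (adjusted p = 9.82e-16 and 4.79e-11). Il1rn, the interleukin-1 receptor antagonist, reached 4249, 4112 and 3880 CPM in WT_M1, against 32.1, 38.9 and 28.6 CPM in WT_M0, a rise of 6.94 ± 0.14. Il18bp, the decoy that binds interleukin-18, rose by 6.60 ± 0.10 and Tnfaip3, the ubiquitin editor A20, by 3.63 ± 0.10. The endonuclease genes Zc3h12c (Regnase-3) and Zc3h12a (Regnase-1), which degrade inflammatory mRNAs, rose by 3.42 ± 0.13 and 2.24 ± 0.11, and Dusp1, a phosphatase of p38 and JNK, by 3.31 ± 0.12. Dusp6, the phosphatase of ERK, fell by 2.57 ± 0.22, and Sigirr, an inhibitory receptor of the interleukin-1 family, by 3.33 ± 0.25. Of 29 tested feedback genes 22 rose, 2 fell and 5 did not pass, with a median of 1.92, and on library totals alone 20 rose and 5 fell.

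The cytokine list had 17 of 22 members tested, and these 17 rose, each at least 2-fold. Of these, 5 passed the count filter through WT_M1 alone and so could be tested only as higher. Their median was 4.63, or 3.96 with the 3 members at 0 counts in WT_M0 set at their bounds. Tnf had 273, 253 and 288 CPM in WT_M1 and 24.5, 26.3 and 23.3 CPM in WT_M0. Il1b, which is released after cleavage by caspase-1, had 73.9, 61.8 and 71.6 CPM in WT_M1 and 0.588, 0.199 and 0.196 CPM in WT_M0. Both were clear of overlap, with rises of 3.46 ± 0.11 for Tnf and 7.71 ± 0.24 for Il1b (adjusted p = 6.25e-13 and 3.56e-13), the second being 8.43 without WT_M0 replicate 4. Il1a, the membrane-associated form of interleukin-1, rose by 8.74 ± 0.25 and Il27, a member of the interleukin-12 family, by 4.80 ± 0.20.

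Il12b, the p40 chain shared by interleukin-12 and interleukin-23, had 637, 1191 and 596 counts in WT_M1 and 0 in each WT_M0 library. It was at least 404-fold higher per effective library size (library total times TMM factor), with 3 counts per library as the floor. Il6, the main inducer of the acute phase, had 128, 113 and 88 counts in WT_M1 and 2, 1 and 0 counts in WT_M0. With summed counts divided by the summed effective library sizes, its ratio was 164, with an exact 95% counting interval of 55.8 to 801 that covers counting error only. Its fitted log2 change was 7.16 ± 0.60, and 7.98 without WT_M0 replicate 4. Per kilobase of gene length, the level in WT_M1 was 1.33 ± 0.246 CPM for Il6 and 166 ± 10.7 CPM for Tnf (mean and SD, n = 3). The 5 members below the count filter included Ifnb1 (interferon-beta) with 5, 24 and 17 counts in WT_M1 and 0, 0 and 2 in WT_M0. Il12a, the p35 chain, had 10, 0 and 3 counts in WT_M1 and 0 in WT_M0, and Il23a, the p19 chain, had 0, 4 and 1 counts in WT_M1 and 0, 1 and 2 in WT_M0.

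Attractants of T cells were among the chemokine genes that rose most. Cxcl9, an interferon-gamma-induced ligand of CXCR3, had 2080, 2717 and 1798 CPM in WT_M1 and 0.157, 0.318 and 0.0588 CPM in WT_M0. Cxcl10, a second CXCR3 ligand, had 709, 342 and 754 CPM in WT_M1 and 25.1, 38.6 and 19.9 CPM in WT_M0. Ccl5, which attracts T cells and monocytes, had 3527, 3970 and 3654 CPM in WT_M1 and 2.0, 2.57 and 2.86 CPM in WT_M0. None of the 3 overlapped, but WT_M1 replicate 11 held less than either other library for Cxcl10 and more for Cxcl9 and Ccl5. The changes were 13.57 ± 0.41 for Cxcl9, 10.55 ± 0.22 for Ccl5 and 4.43 ± 0.38 for Cxcl10 (adjusted p = 2.05e-13, 6.04e-15 and 4.05e-08). Without WT_M1 replicate 11 the change of Cxcl10 was 4.75, and without WT_M0 replicate 5 that of Cxcl9 was 14.28. Ccl8 and Ccl12 rose by 8.84 ± 0.28 and 5.46 ± 0.20, and Ccl6, a chemokine of rodents, fell by 1.11 ± 0.14. In total 16 of 21 tested chemokines rose and 2 fell (4 on library totals alone), with a median of 3.27. Of the 21, 2 passed the count filter through WT_M1 alone and so could be tested only as higher.

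Receptors for chemoattractants split. Fpr1 and Fpr2, receptors of bacterial formyl peptides, rose by 8.06 ± 0.23 and 7.67 ± 0.15, and Ccrl2, a non-signalling receptor that binds chemerin, by 5.34 ± 0.17. Cx3cr1, the fractalkine receptor of monocytes and resident macrophages, had 0.292, 0.180 and 0.440 CPM in WT_M1 and 48.3, 68.5 and 53.4 CPM in WT_M0. Ccr2, the receptor that brings monocytes into tissue, had 1.87, 2.25 and 1.85 CPM in WT_M1 and 13.2, 12 and 14.4 CPM in WT_M0. Cx3cr1 fell by 7.53 ± 0.26 and Ccr2 by 2.73 ± 0.13 (adjusted p = 1.08e-12 and 4.07e-11), with no overlap, and Cxcr3 fell by 4.36 ± 0.24. Of 13 tested receptors 7 rose and 5 fell, and on library totals alone 5 rose and 6 fell.

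**Figure D2:**
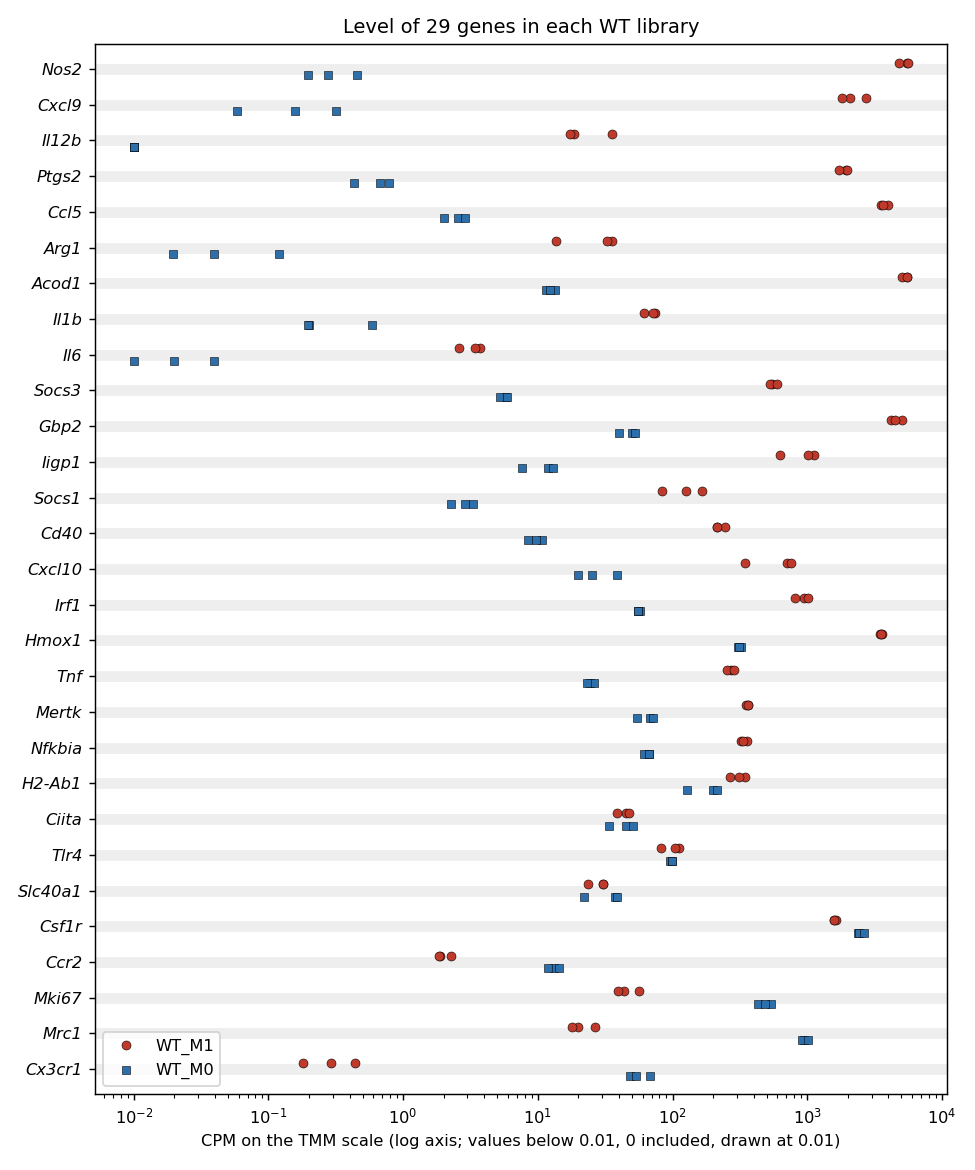
Level of 29 genes in each of the 3 WT_M1 libraries (circles, upper in each row) and 3 WT_M0 libraries (squares, lower in each row), as CPM on a log axis, in the order of their log2 change. Values below 0.01 CPM are drawn at 0.01; Ciita, Tlr4 and Slc40a1 are the 3 genes whose libraries overlap between the groups.

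In the metabolism of arginine, nitric oxide and itaconate, Nos2 had the largest fitted change of all tested genes with at least 5 CPM in WT_M1. Nos2, the inducible nitric oxide synthase, had 5467, 4821 and 5613 CPM in WT_M1 and 0.196, 0.458 and 0.275 CPM in WT_M0. Acod1, which makes itaconate from a Krebs cycle intermediate, had 5469, 5030 and 5466 CPM in WT_M1 and 13.3, 11.5 and 12.3 CPM in WT_M0. Nos2 changed by 14.05 ± 0.36 and Acod1 by 8.75 ± 0.18 (adjusted p = 3.98e-14 and 5.96e-15), and neither came near overlap. The supply of arginine moved the same way, with rises of 6.36 ± 0.13 for its transporter Slc7a2 and 3.72 ± 0.12 for Ass1, which regenerates it from citrulline. Of the 3 enzymes that make the NOS cofactor tetrahydrobiopterin, Gch1 rose by 1.40 ± 0.12, and Pts and Spr fell by 0.74 ± 0.17 and 1.71 ± 0.12. Of 12 tested members 10 rose and 2 fell, and the median was 2.80.

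Arg1, the arginase used as a marker of alternative activation, also rose. It had 35.4, 13.7 and 32.4 CPM in WT_M1 and 0.0392, 0.119 and 0.0196 CPM in WT_M0 (1209, 455 and 1107 counts in WT_M1 and 2, 6 and 1 counts in WT_M0). Its change was 8.77 ± 0.47 (adjusted p = 1.32e-10), 9.13 without WT_M1 replicate 11 and 9.71 without WT_M0 replicate 5. Per kilobase of gene length, the level of Arg1 in WT_M1 was 12.2 ± 5.29 CPM and that of Nos2 1194 ± 94.9 CPM (mean and SD, n = 3). Arg2, the mitochondrial arginase, rose by 5.73 ± 0.26.

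The interferon-inducible GTPases, which attack the vacuoles of intracellular microbes, rose without exception among those tested. Gbp2 had 5060, 4197 and 4517 CPM in WT_M1 and 50.1, 52.4 and 40.2 CPM in WT_M0. Iigp1 had 1118, 631 and 1020 CPM in WT_M1 and 11.9, 13.0 and 7.63 CPM in WT_M0. Neither overlapped, and Gbp2 rose by 6.59 ± 0.18 and Iigp1 by 6.41 ± 0.26 (adjusted p = 6.35e-14 and 6.14e-12). All 11 tested guanylate-binding proteins rose, between 2.35 ± 0.14 for Gbp9 and 9.75 ± 0.23 for Gbp10, with a median of 6.27 (3 of them passed the count filter through WT_M1 alone), with Gbp4 at 9.30 ± 0.23 and Gbp6 at 5.71 ± 0.12. All 7 tested immunity-related GTPases rose, with a median of 4.10, among them Tgtp1, Tgtp2, Igtp, Irgm1 and Ifi47 with 8.59 ± 0.29, 4.82 ± 0.26, 4.10 ± 0.18, 3.06 ± 0.15 and 2.51 ± 0.19. Near-identical copies such as Tgtp1 and Tgtp2 or the members of the Gbp cluster may exchange reads, so that their separate values are uncertain.

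Genes classed as type I interferon targets rose in 32 of 34 cases and fell in 0, with a median of 1.95 (31 and 2 on library totals alone). Ifi205, a DNA-binding member of the p200 family, rose by 5.94 ± 0.29, Rsad2, the antiviral enzyme viperin, by 4.49 ± 0.25 and Ifit2, which acts against viral RNA, by 4.16 ± 0.25. Herc6, the ISG15 ligase of the mouse, rose by 3.05 ± 0.13, Xaf1, a promoter of apoptosis, by 2.65 ± 0.15 and Samhd1, which hydrolyses nucleotides, by 2.01 ± 0.11. Ifnb1 itself, as given above, stayed at 24 counts or fewer.

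Genes of oxidant defence and iron handling rose for the most part. Hmox1, which degrades heme, had 3568, 3498 and 3514 CPM in WT_M1 and 309, 320 and 310 CPM in WT_M0, a rise of 3.49 ± 0.07 (adjusted p = 5.75e-15). Slc40a1, the iron exporter ferroportin, had 30.6, 23.8 and 30.6 CPM in WT_M1 and 37.7, 21.8 and 38.8 CPM in WT_M0, which overlap (log2 change −0.21 ± 0.24, adjusted p = 0.436). Replicate 11 in WT_M1 and replicate 5 in WT_M0 were the low libraries of Slc40a1. Fth1, the ferritin heavy chain, rose by 2.29 ± 0.09 to 2.95% to 3.23% of all counts in WT_M1, against 0.893% to 0.966% in WT_M0. Lcn2, which captures bacterial siderophores, rose by 9.08 ± 0.21 and Slc11a1, the phagosomal metal transporter NRAMP1, by 2.55 ± 0.08, while Tfrc, the transferrin receptor, fell by 1.71 ± 0.09. Of 11 tested iron genes 9 rose and 1 fell (8 and 2 on library totals alone), with a median of 1.96. Of 6 NADPH oxidase genes 5 rose and 0 fell (3 and 2 on library totals alone), among them Cybb, the catalytic chain, by 1.91 ± 0.11 and Rac2 by 1.42 ± 0.07. Of 12 antioxidant genes 8 rose and 1 fell (8 and 4 on library totals alone), led by the cystine transporter Slc7a11 at 5.68 ± 0.16, the mitochondrial dismutase Sod2 at 4.60 ± 0.10 and glutathione reductase Gsr at 2.17 ± 0.07.

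Antigen presentation through class I and class II differed. All 17 tested class I genes rose, with a median of 2.49, and on library totals alone 15 rose and 1 fell. Tapbpl, a peptide editor, rose by 3.49 ± 0.09, H2-T22 by 3.16 ± 0.12 and H2-Q4 by 3.04 ± 0.10. B2m, the light chain, rose by 2.25 ± 0.09 and H2-D1 by 1.64 ± 0.09. The H2-Q and H2-T genes resemble each other closely and may share reads. All 5 immunoproteasome and PA28 genes rose, with a median of 1.94 (Psme2 2.44 ± 0.14, Psmb8 1.85 ± 0.12), and so did the 3 constitutive catalytic subunits, with a median of 1.48 (Psmb6 1.67 ± 0.15).

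Class II genes changed less. Ciita, the class II transactivator, had 45.4, 47.6 and 39.0 CPM in WT_M1 and 45.5, 33.6 and 50.5 CPM in WT_M0, with overlap (0.03 ± 0.14, adjusted p = 0.868), or −0.56 on library totals alone. H2-Ab1, the class II beta chain, had 268, 347 and 310 CPM in WT_M1 and 199, 128 and 212 CPM in WT_M0. Its rise of 0.78 ± 0.15 (adjusted p = 0.000261) was 0.19 and not called on library totals alone. H2-Aa, the alpha chain, had 259, 284 and 256 CPM in WT_M1 and 235, 166 and 247 CPM in WT_M0, without overlap but short of the threshold (0.30 ± 0.14, adjusted p = 0.072). It passed without WT_M0 replicate 6 (0.41, adjusted p = 0.0327). Its change of 0.30 is smaller than the 0.59 by which library totals alone lower every change, so that its direction turns there. Cd74, the invariant chain, rose by 1.08 ± 0.12 and the protease Ctss, which trims it, by 1.18 ± 0.10. Of 11 tested class II genes 6 rose and 1 fell, with a median of 0.47, which was −0.11 on library totals alone, with 4 higher and 3 lower. WT_M0 replicate 5 was the lowest unstimulated library for Ciita, H2-Ab1 and H2-Aa.

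Costimulatory and checkpoint genes moved far in both directions, with 10 of 15 tested higher, 5 lower and a median of 2.60. Cd40, the receptor for CD40 ligand on T cells, had 212, 246 and 214 CPM in WT_M1 and 10.7, 8.42 and 9.72 CPM in WT_M0, a rise of 4.54 ± 0.14 without overlap (adjusted p = 2.16e-13). Cd274, which encodes PD-L1, reached 3455, 3480 and 3141 CPM in WT_M1, against 36.0, 36.0 and 36.2 CPM in WT_M0, a rise of 6.54 ± 0.10. The B7 molecules diverged, with Cd86 higher by 4.47 ± 0.15 and Cd80 lower by 0.74 ± 0.15. The receptor gene Slamf7 and the adhesion molecule Icam1 rose by 3.92 ± 0.10 and 2.60 ± 0.08. Icosl, the ICOS ligand, and Vsir, the checkpoint VISTA, fell by 2.62 ± 0.13 and 1.48 ± 0.08.

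The enzymes of lipid mediators moved in both directions. Ptgs2, the inducible cyclooxygenase, had 1948, 1980 and 1707 CPM in WT_M1 and 0.783, 0.676 and 0.431 CPM in WT_M0, a rise of 11.53 ± 0.21 (adjusted p = 2.92e-15). Its antisense neighbour cannot be told apart from it, since the sources used here give no strand setting. Ptges, which makes prostaglandin E2 from the product of PTGS2, rose by 7.81 ± 0.14 and Pla2g4a, which frees arachidonic acid, by 3.06 ± 0.11. Hpgd, which inactivates prostaglandins, fell by 6.26 ± 0.32, and Ptgs1, the constitutive cyclooxygenase, by 4.62 ± 0.20. Alox5, the first enzyme of leukotriene synthesis, had 0.234, 0.150 and 0.293 CPM in WT_M1 and 34.8, 45.9 and 39.0 CPM in WT_M0, a fall of 7.44 ± 0.22. Of 15 tested genes 5 rose and 8 fell, and the median was −0.85.

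Genes of inflammasomes and lytic death rose in 12 of 16 cases and fell in 2, with a median of 0.62, and on library totals alone 6 rose and 3 fell, with a median of 0.04. Mlkl, the pore former of necroptosis, rose by 2.93 ± 0.11, Casp4, the mouse caspase-11 that binds cytosolic LPS, by 2.79 ± 0.15 and Casp1 by 2.35 ± 0.09. Pycard, the adaptor ASC, fell by 1.56 ± 0.11. The sensor gene Nlrp3 rose by 0.77 ± 0.09, which was 0.18 and not called on library totals alone. In the complement list 12 of 15 rose and 2 fell, with a median of 1.78 (2 of the 15 passed the count filter through WT_M1 alone). C3 reached 4635, 5390 and 4906 CPM in WT_M1, against 96.1, 73.6 and 109 CPM in WT_M0, a rise of 5.74 ± 0.18. Cfb, its partner in the alternative pathway convertase, rose by 8.42 ± 0.26 (9.22 without WT_M0 replicate 4) and C1ra by 2.80 ± 0.09.

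Energy metabolism differed by pathway. Of 20 tested glycolysis genes 18 rose and 2 fell, with a median of 1.51. Pfkfb3, whose product activates phosphofructokinase, had 1025, 1082 and 1027 CPM in WT_M1 and 24.0, 25.6 and 28.3 CPM in WT_M0, a rise of 5.33 ± 0.11, and Hk3, a hexokinase, Slc2a1, the glucose transporter GLUT1, and Pgk1 rose by 3.10 ± 0.08, 3.07 ± 0.12 and 2.28 ± 0.08. In the tricarboxylic acid cycle 10 of 18 rose and 4 fell, with a median of 0.27, but on library totals alone 4 rose and 12 fell. Suclg2, a chain of succinyl-CoA ligase, and Fh1, fumarate hydratase, fell by 2.27 ± 0.11 and 1.68 ± 0.11. Of 28 genes of oxidative phosphorylation 17 rose and 0 fell, with a median of 0.39, and on library totals alone 5 rose and 12 fell. The soluble carrier Cycs rose by 1.71 ± 0.16 and Cox5a, a chain of complex IV, by 0.88 ± 0.07.

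Cholesterol synthesis fell in 17 of 21 tested genes and rose in 2, with a median of −1.17, and on library totals alone 19 fell and 0 rose. Idi1, an isomerase of the mevalonate pathway, had 1.11, 0.75 and 0.762 CPM in WT_M1 and 21.2, 22.5 and 19.9 CPM in WT_M0, a fall of 4.59 ± 0.16 without overlap. Cyp51, the lanosterol demethylase, fell by 3.15 ± 0.12 and Sqle, squalene epoxidase, by 2.90 ± 0.11.

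Genes of proliferation fell almost throughout. All 24 tested mitosis genes fell at least 2-fold, with a median of −5.37, and 22 of 26 genes of G1/S and DNA replication fell, with a median of −3.15. Mki67, the proliferation antigen Ki-67, had 43.8, 56.0 and 39.2 CPM in WT_M1 and 434, 540 and 484 CPM in WT_M0. Ccna2, cyclin A2, had 1.02, 0.57 and 0.352 CPM in WT_M1 and 132, 148 and 127 CPM in WT_M0. Mki67 fell by 3.39 ± 0.20 and Ccna2 by 7.70 ± 0.20 (adjusted p = 3.51e-10 and 4.03e-14), so that the size of the fall differed widely within the list. The mitotic kinase Plk1 fell by 8.28 ± 0.24, cyclin Ccnb2 fell by 7.49 ± 0.15 and Cdc20, an activator of the anaphase-promoting complex, fell by 7.26 ± 0.12, and the smallest fall was that of the spindle factor Tpx2 (1.03 ± 0.10). Among S phase genes the nucleotide enzymes Rrm2 and Tk1 fell by 6.55 ± 0.16 and 5.93 ± 0.16 and the helicase gene Mcm7 by 3.94 ± 0.13.

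In the G1/S and DNA replication list 3 genes passed as higher, Ccnd2, Ccne1 and Pcna. Ccnd2 rose by 3.63 ± 0.26 and Ccne1 by 2.43 ± 0.12. Ccne1, cyclin E1, had 107, 127 and 106 CPM in WT_M1 and 19.4, 24.9 and 18.8 CPM in WT_M0. Pcna, the sliding clamp, was higher by 0.49 ± 0.09, or −0.09 on library totals alone. The list of cyclin-dependent kinase inhibitors also held GADD45 growth arrest genes. Of its 10 tested members 5 were higher and 4 lower, beside 35.1% and 37.9% of all tested genes. GADD45 genes were among the higher members, so that this split is not one of the inhibitors alone. Cdkn2c (p18) fell by 5.71 ± 0.13 and Cdkn1b (p27) by 1.15 ± 0.09, while the growth arrest gene Gadd45b rose by 3.29 ± 0.16.

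Genes of macrophage identity stayed expressed and moved in both directions. Csf1r, the receptor of CSF-1, had 1574, 1627 and 1567 CPM in WT_M1 and 2379, 2404 and 2643 CPM in WT_M0. Mertk, a receptor for the uptake of dying cells, had 361, 354 and 363 CPM in WT_M1 and 67.9, 54.9 and 71.9 CPM in WT_M0. Csf1r fell by 0.64 ± 0.08 and Mertk rose by 2.47 ± 0.11 (adjusted p = 5.13e-06 and 2.5e-11), both without overlap. The sterol receptor gene Nr1h3 and the factor Cebpb rose by 3.26 ± 0.10 and 3.14 ± 0.10, and the lipid receptor Trem2 and the lysozyme gene Lyz2 fell by 2.46 ± 0.11 and 1.01 ± 0.16. Of 22 identity genes 12 rose and 7 fell, and on library totals alone 8 rose and 11 fell.

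Genes known from alternative (M2) activation did not move as a group, with 8 of 19 tested higher, 8 lower and a median of 0.08. The even split resembled that of all tested genes, of which 35.1% were higher and 37.9% lower. The sizes did not, since at least 2-fold 8 members were higher and 7 lower, against 17.4% and 21.4% of all tested genes. Of the 19, 1 passed the count filter through WT_M1 alone and 2 through WT_M0 alone. Mrc1, the mannose receptor CD206, had 19.9, 26.4 and 18 CPM in WT_M1 and 941, 908 and 1017 CPM in WT_M0, a fall of 5.48 ± 0.19 (adjusted p = 9.51e-13). Cd163, the haemoglobin scavenger receptor, fell by 4.85 ± 0.29. Beside Arg1, the transglutaminase gene Tgm2 rose by 3.75 ± 0.09, the interleukin-4 receptor chain Il4ra by 2.61 ± 0.12 and the factor Klf4 by 2.44 ± 0.11. Chil3, encoding Ym1, was below 1 CPM in all 6 libraries. On library totals alone 8 members rose and 9 fell.

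Uptake receptors and lysosomal genes were mixed as well. Marco, a scavenger receptor for bacteria, had 828, 681 and 753 CPM in WT_M1 and 1.70, 1.27 and 0.882 CPM in WT_M0, a rise of 9.19 ± 0.22. The Fc receptor Fcgr4 and the scavenger receptor Msr1 rose by 3.67 ± 0.10 and 2.30 ± 0.08, and Gas6, the bridge between dying cells and MERTK, fell by 2.37 ± 0.13. Of 22 uptake genes 12 rose and 7 fell, with a median of 0.61, and on library totals alone 10 rose and 9 fell, with a median of 0.03. Of 24 lysosomal genes 14 rose and 8 fell, and on library totals alone 10 rose and 11 fell. The proteases Ctsh and Ctsz rose by 3.24 ± 0.12 and 1.85 ± 0.08, and the glucuronidase gene Gusb fell by 1.86 ± 0.09. Of 20 genes of the unfolded protein and integrated stress responses 12 rose and 5 fell, with a median of 0.72, and on library totals alone 9 rose and 8 fell. Among those that rose were Trib3 at 4.66 ± 0.16, Ddit3 (CHOP) at 4.12 ± 0.14, Ppp1r15a (GADD34) at 3.48 ± 0.14 and Atf4 at 2.49 ± 0.10.

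**Figure D3:**
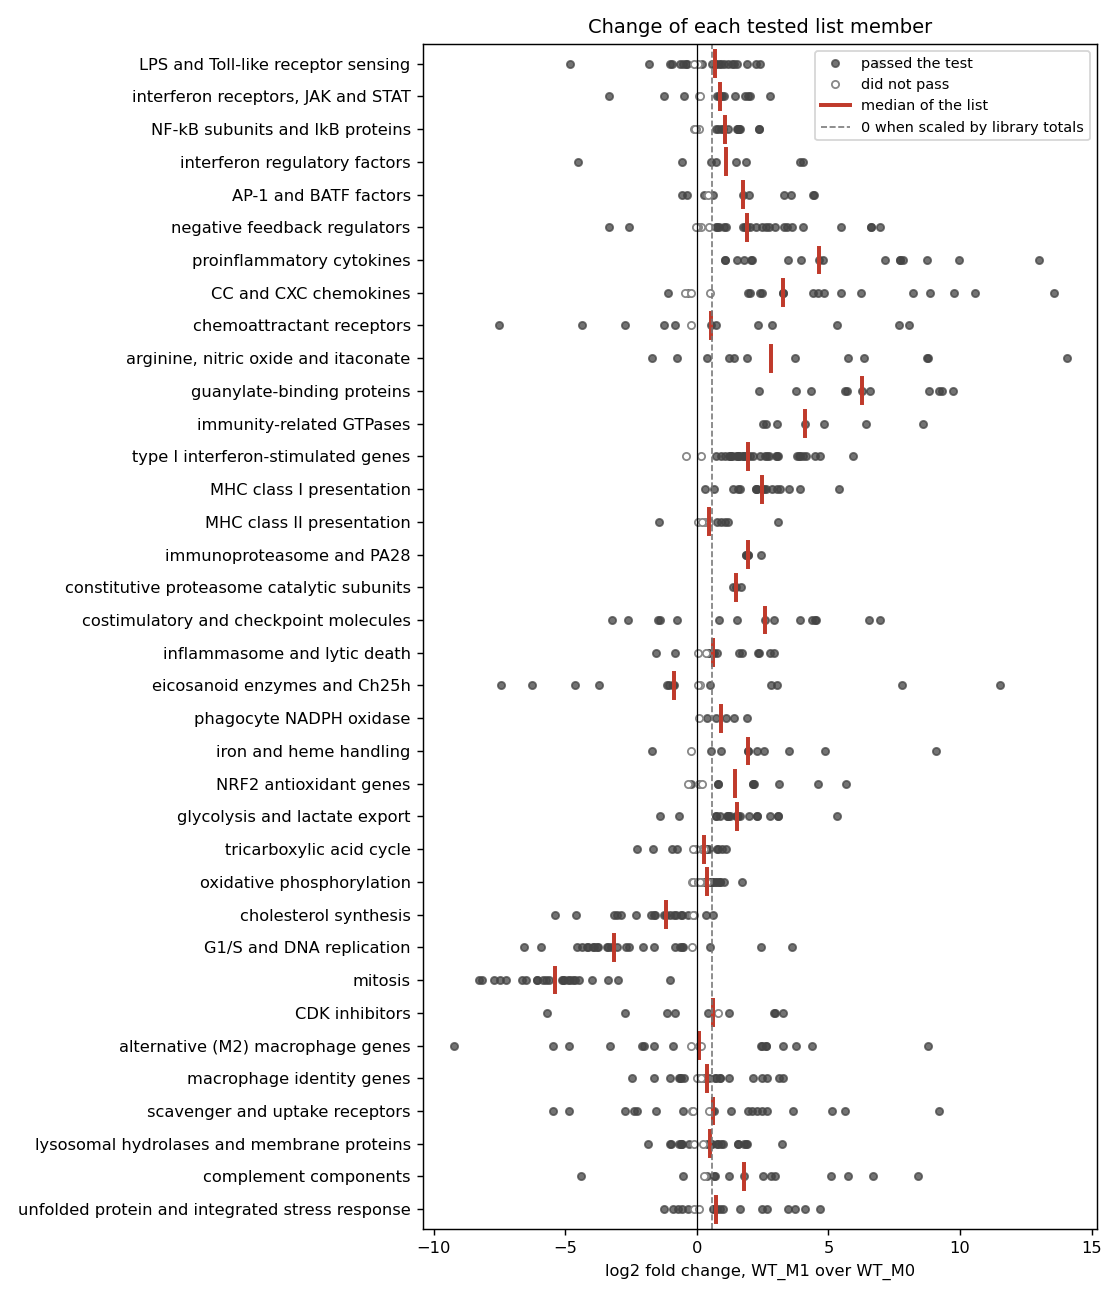
Log2 fold change of WT_M1 over WT_M0 for each tested member of 36 gene lists, with filled points for members that passed the test, open points for those that did not and a red bar at the median of the list. The solid line is 0 on the TMM scale and the dashed line, at 0.59, is where 0 lies with library totals alone; mitosis lies wholly to the left and guanylate-binding proteins wholly to the right of both. Members with 0 counts in a group are drawn at their fitted value.

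The largest rises, taken among genes of at least 5 CPM in the higher group, were in part of genes outside these lists. Saa3, an acute phase apolipoprotein, had 3822, 5524 and 3524 CPM in WT_M1 and 1.80, 0.418 and 0.980 CPM in WT_M0, a rise of 11.97 ± 0.41 that was 12.57 without WT_M0 replicate 4. Il23r, the interleukin-23 receptor, Ubd, a ubiquitin-like modifier, and Heatr9 had no count in WT_M0 and were at least 262-fold, 239-fold and 139-fold higher. Enpp2, which encodes autotaxin, had 927, 949 and 772 counts in WT_M1 and 1 count in all in WT_M0, a ratio scaled in the same way of 3968 with a counting interval of 712 to 156805. The fitted log2 change of Enpp2 was 11.42 ± 0.31, and 13.10 without WT_M0 replicate 6, which held that count. The protease inhibitor Serpina3g, which has close copies, and the chloride channel protein Clic5 rose by 11.34 ± 0.31 and 10.18 ± 0.17. These stand beside Nos2, Cxcl9, Il12b, Ptgs2 and Ccl5 among the 12 largest by fitted change, where the rank of a gene with 0 counts in WT_M0 rests on its fitted value and not on its bound.

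Of the 12 largest falls by fitted change, ranked with the same limit for genes at 0 counts, most were of genes of cell division. Ankle1, a nuclease, and Xkr5 had no count in WT_M1 and were at least 222-fold and 91.6-fold lower, with 20.4, 19.3 and 19.2 CPM of Ankle1 in WT_M0. The cell division genes Aspm, Plk1, Ccna2 and Sapcd2 fell by 8.91 ± 0.20, 8.28 ± 0.24, 7.70 ± 0.20 and 7.71 ± 0.34. Pimreg fell by 8.76 ± 0.32 (−9.90 without WT_M1 replicate 12) and Cenpf, a kinetochore protein, by 8.16 ± 0.28 (−9.18 without WT_M1 replicate 11). Ska1, of the kinetochore as well, fell by 7.58 ± 0.49 (−11.46 without WT_M1 replicate 11 and −6.99 without WT_M1 replicate 12). Rasgrp3, an exchange factor for Ras, fell by 8.57 ± 0.25 (−9.81 without WT_M1 replicate 11) and Sult1a1, a sulfotransferase, by 8.05 ± 0.62. Cd300lg had 2 counts in all in WT_M1 and 403, 453 and 408 counts in WT_M0, a ratio, scaled likewise, of 0.00237 with a counting interval of 0.000287 to 0.00858. The fitted log2 change of Cd300lg was −8.52 ± 0.37, and −11.49 without WT_M1 replicate 12.

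By level per kilobase of gene length, the 10 most abundant genes of the 2 states overlapped in 6, mitochondrial and ribosomal protein genes aside. In WT_M1 they were led by Fth1 with 10886 ± 736, B2m with 8985 ± 736 and Psap, the precursor of lysosomal saposins, with 8887 ± 345 CPM per kilobase (mean and SD, n = 3). The chemokine gene Ccl5 came next with 3872 ± 237 CPM per kilobase in WT_M1, against 2.58 ± 0.458 in WT_M0, followed by Lyz2, Ctss, Ctsb, H2-D1, Tmsb4x and Ftl1. In WT_M0 Lyz2 led with 7475 ± 1617, followed by Psap with 3427 ± 289, the elongation factor Eef1a1 with 2463 ± 222 and Fth1 with 2220 ± 73.1 CPM per kilobase, and then by Lgals3, B2m, Ctsb, Actb, Apoe and Tmsb4x. Actb, often used as a reference for PCR, was higher by 0.38 ± 0.08 on the TMM scale and −0.21 on library totals alone. Apoe was at −0.32 ± 0.17 (adjusted p = 0.0942) and passed without WT_M1 replicate 11 (−0.46) or WT_M0 replicate 5 (−0.53).

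Of genes with at least 100 CPM in both groups, those nearest to no change were Sar1a, Abhd12, Map1lc3b, Stom, Slc44a2 and Arpc4, each within 0.01 of 0. Abhd12, for example, had 386, 382 and 409 CPM in WT_M1 and 392, 396 and 389 CPM in WT_M0. On library totals alone these 6 stood at −0.58 or −0.59, so that their steadiness holds for the TMM scale.

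The 6 rising genes with the widest spread over the WT_M1 libraries were Tnfsf15, G530011O06Rik, Arg1, Mreg, Il12b and Ifit1bl1, and WT_M1 replicate 11 was the odd library in each. It was the highest for Tnfsf15, a TNF family cytokine, with 77.9 CPM beside 41.3 and 35.1, against 2.55, 1.45 and 2.21 CPM in WT_M0. It was the lowest for the interferon-induced Ifit1bl1, with 26.4 CPM beside 56.0 and 59.7, against 4.27, 4.78 and 3.12 CPM in WT_M0. Without replicate 11 the changes were 4.23 and not 4.63 for Tnfsf15, 3.86 and not 3.55 for Ifit1bl1, 6.51 and not 6.89 for Mreg and 5.36 and not 5.00 for G530011O06Rik. None of these calls was lost. Of the 102 genes in which it was farthest from the others, replicate 11 was the highest library in 71 and the lowest in 31.

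**Figure D4:**
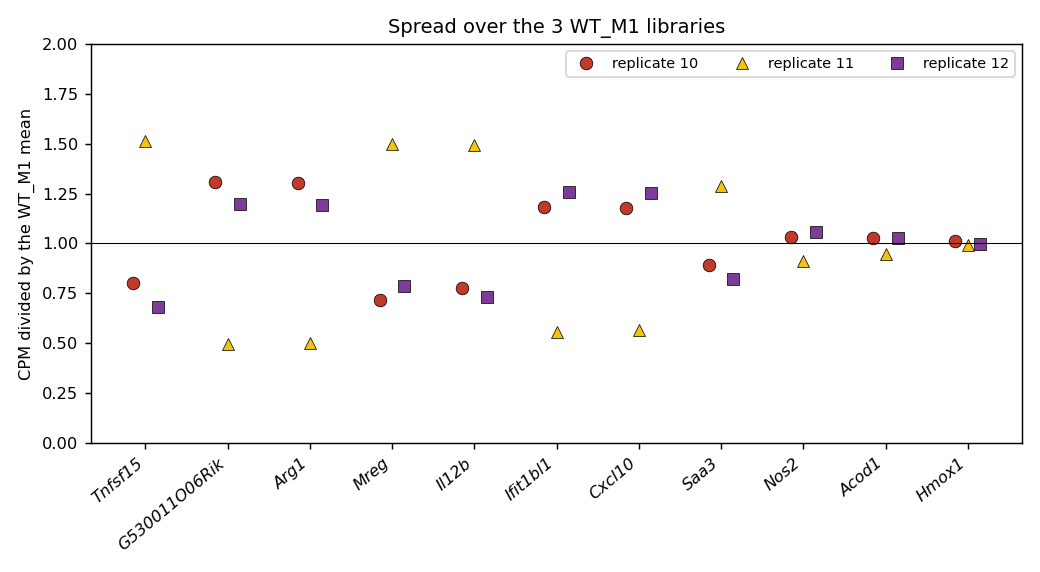
CPM in each of the 3 WT_M1 libraries divided by their mean, for the 6 most variable rising genes (left) and 5 further genes (right). Replicate 11 (triangles) lies near 1.5 or near 0.5 for the 6 genes, and Nos2, Acod1 and Hmox1 lie close to 1 in all 3 libraries.

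The cells carried macrophage markers in both states. All 10 macrophage markers were tested, and their summed level was 15077 to 17098 CPM in WT_M1 and 14800 to 19376 CPM in WT_M0. Markers of T and NK cells summed to 10.6 to 11.9 CPM in WT_M1 and 13.6 to 19.1 CPM in WT_M0, with 6 of 10 at 0, and erythroid markers to under 1 CPM. Neutrophil markers summed to 296 to 354 CPM in WT_M1 and 54.5 to 75.6 CPM in WT_M0. Most of this was Csf3r (262, 330 and 274 CPM in WT_M1 and 49.1, 34.4 and 51.2 CPM in WT_M0), which macrophages also express, and Ly6g was at 0. B cell and plasma cell markers summed to 3.16 to 5.19 CPM in WT_M1 and 53.5 to 70.7 CPM in WT_M0, the larger part of it Ighm in WT_M0, with 1 of 8 markers at 0. Markers of fibroblasts and endothelium summed to 313 to 389 CPM in WT_M1 and 24.7 to 31.0 CPM in WT_M0, most of it the VEGF receptor gene Kdr. The collagen gene Col1a1 had 0 counts in WT_M1 and 88, 0 and 0 counts in WT_M0, so that WT_M0 replicate 4 alone held it. Mast cell, basophil and eosinophil markers summed to 1.77 to 2.14 CPM in WT_M1 and 10.1 to 10.9 CPM in WT_M0, dendritic cell markers to 2.98 to 4.62 CPM in WT_M1 and 0.657 to 1.31 CPM in WT_M0, and megakaryocyte markers to 127 to 152 CPM in WT_M1 and 164 to 185 CPM in WT_M0. The part of such cells in the changes above was not tested.

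The response differed between WT and the libraries labelled cKO for 1270 of the tested genes (8.73%), by the quasi-likelihood test of the difference between the 2 responses. Zc3h12c, the gene named in the knockout, had 6020, 6392 and 5424 counts in WT_M1 and 878, 819 and 794 in WT_M0, against 3463, 3652 and 4484 in cKO_M1 and 703, 944 and 751 in cKO_M0. The sources used here do not say whether the counted exons lie in the deleted stretch, so that these counts check the label only in part. Il1b rose by 7.71 in WT and by 10.65 in cKO (difference −2.94 ± 0.53, adjusted p = 0.00489), and its difference was −2.22 without WT_M0 replicate 4 (adjusted p = 0.0267). Of 217 genes named here 31 differed, and the WT change was the smaller in size in 13 of them. A difference was also called for 1 further named gene, left out because a group held 0 to 3 counts of it. The count of 1270 is sensitive to single libraries, falling to 614 without WT_M0 replicate 6, 779 without WT_M1 replicate 11 and 820 without WT_M0 replicate 4.

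**Figure D5:**
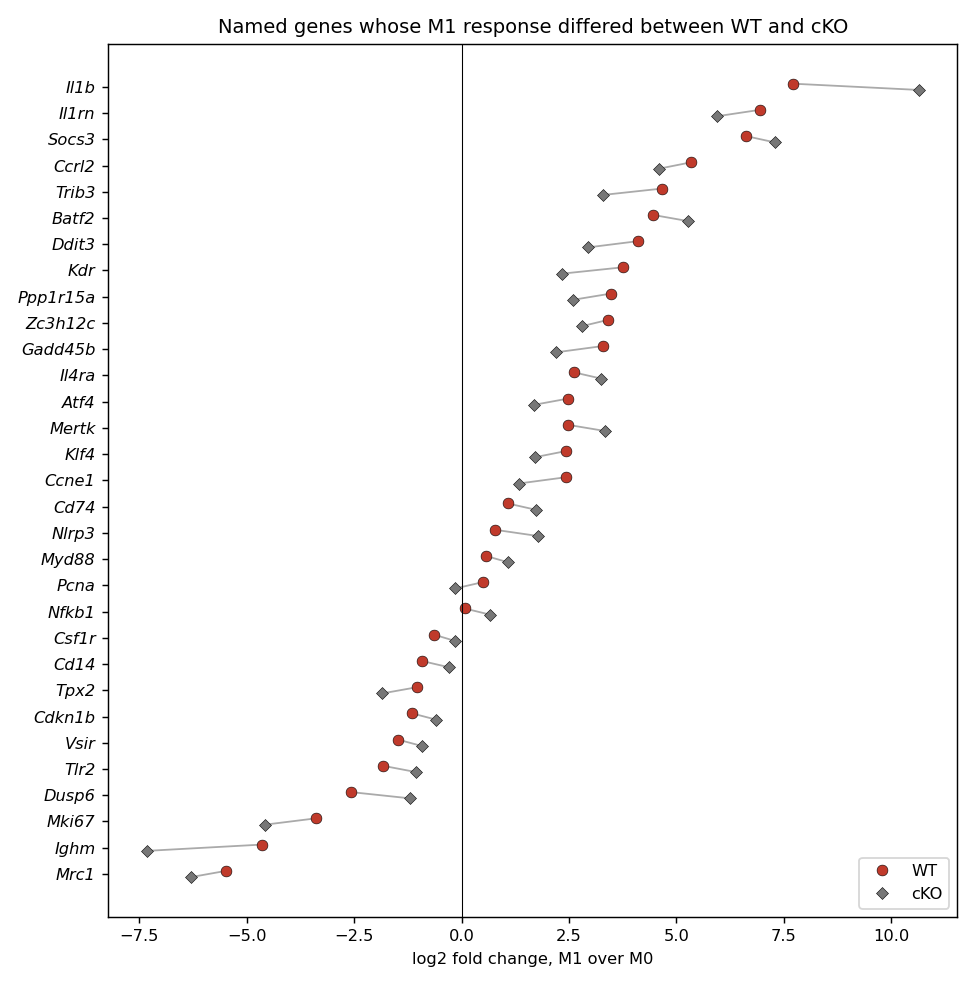
Log2 fold change of M1 over M0 in WT (circles, upper in each row) and in the libraries labelled cKO (diamonds, lower) for the named genes whose response passed the test of a difference. A gene with 0 to 3 counts in a group is left out. Il1b and Ighm show the widest gaps of these genes, and Pcna is the gene whose fitted change lies, on the TMM scale, above 0 in WT and below 0 in cKO.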

How the data were processed

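The authors deposited raw counts per gene in a table of 12 library columns, not normalized per the file headers. Per the submitters' processing notes, the tools were featureCounts 2.0.3, HISAT2 2.2.1, Trimmomatic 0.39 and SAMtools 1.16.1, and the build was GRCm39; the sources used here do not give strand, multi-mapping or annotation settings. Totals were 41721452 to 42197986 counts in 12 libraries, and 4907 IDs without a symbol in the name table held 0.156% to 0.243%. Of values from 1 to 10, 60.9% were even, so halved counts were tried.

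Counts were fitted with edgeR 4.0.16 (R 4.3.3): TMM factors, 1 mean per group over 12 libraries, glmQLFit and glmQLFTest, Benjamini-Hochberg over 14547 genes. The fit was tested on simulated data, where it recovered 31 of 50 genes changed 1.5-fold, 46 of 50 changed 2-fold and 50 of 50 changed 4-fold, with 5 false among 182 calls. Alternatives used DESeq2 1.42.0 and limma 3.58.1 (voom), other scalings and filters, and each WT library left out. Tables used Python 3.11.15, pandas 2.3.3 and scipy 1.17.1.

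The filter kept 288 genes only through WT_M1 and 773 only through WT_M0. Besides the lists where this is given above, 1 member each was kept only through WT_M1 in 4 lists. These were Toll-like receptor sensing, AP-1 and BATF, arginine metabolism and uptake receptors. In the list of interferon receptors, JAK and STAT, 1 member was kept only through WT_M0. The 45 gene lists (697 entries, some shared) came from general knowledge, and members and lists were chosen with earlier results of these data known. Genes named were a set shown in every library and up to 4 per list by smallest p (with members needed to give the direction of the rest). To these came the 12 largest changes each way of at least 5 CPM without overlap, the 10 most abundant per length in each state, the 6 most variable and the 6 nearest to 0. Ifnb1, Il12a, Il23a and Col1a1 were named after their values were seen. Some genes that the rule picks are not reported here.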

Additional observations from a re-analysis of the deposited data

Results flagged for a closer look

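The genes below are given because the response of WT differed from that of the libraries labelled cKO by the test of the difference itself (edgeR's quasi-likelihood test, adjusted over 14547 genes). Values are log2 differences, WT response minus cKO response, and no explanation was tested. All rest on the same 12 libraries, and leaving out 1 WT library changed the number of genes called from 1270 to between 614 and 1611. Without WT_M0 replicate 6, calls were lost for Myd88 (adjusted p = 0.1), Zc3h12c (0.0977), Ccrl2 (0.124) and Cd74 (0.0817). So were those of Il4ra (0.0759), Mrc1 (0.07), Csf1r (0.0681) and Cdkn1b (0.0509). All of these but Csf1r and Cdkn1b also lost their call without another WT library. The other genes below kept theirs with each WT library left out.

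Of sensing, signalling and feedback genes, Tlr2 (−0.77), Cd14 (−0.63) and Dusp6 (−1.38) fell more in WT than in cKO. Myd88 (−0.51), Nfkb1 (−0.60), Batf2 (−0.83) and Socs3 (−0.67) had the smaller fitted rise in WT. Il1rn (0.98) and Zc3h12c (0.61), the gene named in the knockout, had the WT change higher.

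Of cytokine, receptor and immune effector genes, Il1b (−2.94), Nlrp3 (−1.02), Cd74 (−0.65) and Il4ra (−0.64) rose less in WT than in cKO. Vsir (−0.56) fell more in WT, and Ccrl2 (0.73) rose more. Nlrp3 rose by 0.77 in WT and by 1.78 in cKO.

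Of proliferation genes, Mki67 (1.18) and Tpx2 (0.83) fell less in WT than in cKO, and Cdkn1b (−0.56) fell more. Ccne1 (1.10), Pcna (0.64) and Gadd45b (1.09) had the higher WT change.

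Of identity and alternative activation genes, Csf1r (−0.49) fell more and Mertk (−0.88) rose less in WT than in cKO. Mrc1 (0.83) fell less and Klf4 (0.73) rose more in WT. The integrated stress response genes Ddit3 (1.16), Trib3 (1.36), Atf4 (0.80) and Ppp1r15a (0.89) rose more in WT. The marker genes Ighm (2.68) and Kdr (1.41) had the WT change higher, with Ighm falling by 4.65 in WT and by 7.33 in cKO.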

How the results depend on the processing

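Of 217 named genes 196 kept direction and call under every alternative. Library totals alone turned 12 that passed on at least 1 of the 2 scales. They were Tlr4 −0.56, Myd88 −0.01, Nfkb1 −0.51, Ciita −0.56, Pcna −0.09 and Sar1a −0.59. The others were Abhd12 −0.59, Map1lc3b −0.58, Slc44a2 −0.58, Arpc4 −0.58, Lgals3 −0.53 and Actb −0.21. H2-Aa, which passed on neither scale, turned as well. Library totals alone also ended 3 calls, among them Tmsb4x. The counts became 2709 higher and 8820 lower (1464 and 5351 by at least 2-fold), a share of 23.5% higher against 48.08%. Upper-quartile factors gave 4402 higher and 6275 lower. Leaving out each WT library gave 4835 to 5089 higher, 5118 to 5250 lower, 2486 to 2581 and 2983 to 3069 by at least 2-fold, and 614 to 1611 differences from cKO. DESeq2 gave 1907 such differences and no filter 1972, against 1270. The cause was not tested. Replicate numbers run on through the groups, and the labels do not say whether WT_M1 and WT_M0 cultures came from the same mice. No paired analysis was therefore run, and a pairing, if there was one, is not in the fit. In the simulated data 182 of 13930 genes were called, against 72.9% of the tested genes in the real data. The share of 1.5-fold changes missed there therefore does not carry over to the real data.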
